A study of Rattus norvegicus with 12 samples.

Results

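Srebf1, Mlxipl, Thrsp and Mid1ip1 are 4 regulators of fatty acid synthesis, and their RNA was followed in rat liver after feeding with wakame, an edible brown seaweed. Their probe sets were taken by symbol: every probe set on the array whose single gene symbol in the platform annotation is one of the 4. This gave 7 probe sets and 4 genes, out of 31099 probe sets (57 of them controls of the manufacturer) and 14217 genes. A probe set is a group of short probes aimed at the 3′ part of a transcript. A probe set whose standard deviation (SD) over the 12 arrays is at most 0.01 log2 counts as unmeasured, since 27802 of the probe sets carry practically the same value on every array. All 7 member probe sets were among the 3240 measured ones, with SDs of 0.254 to 0.940 log2.

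The animals were male Sprague Dawley rats, 9 weeks old when the liver was taken. After 28 days on the diets, 4 livers per diet were arrayed, each from a separate rat. The control rats ate a purified diet based on corn starch (52.9%) and casein (20%), low in fat (7%), and the wakame rats ate this diet with 0.1% or 1% wakame powder. Each diet was fed to 6 rats housed in cages of 3. Cage mates share a diet, and the effects of cage and of diet cannot be told apart.

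In the liver, fatty acids are made from sugar when insulin and glucose are high. SREBP-1, encoded by Srebf1, is a transcription factor held in the endoplasmic reticulum membrane until proteases release it, and it carries the insulin signal to the genes of fatty acid synthesis. ChREBP, encoded by Mlxipl, is a partner of Mlx that responds to glucose metabolites and acts on many of the same genes. Thrsp encodes Spot 14, a small protein first known in rat liver as a product that thyroid hormone and carbohydrate feeding induce. Mid1ip1 encodes a relative of Spot 14 that binds acetyl-CoA carboxylase and helps it to form active polymers.

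The DNA in front of each gene was read from RefSeq promoter windows of the rat assembly GRCr8, and is shown because the 4 genes are set beside each other in all that follows. RefSeq lists 2 start sites for Srebf1, and 2 for Mlxipl that lie 4 bases apart. Below are the 250 bases before a start site, 5′ to 3′, all from the minus strand. They lie at chr10:45519011-45519260 for the second Srebf1 start, chr12:27213661-27213910 for Mlxipl, chr1:161138965-161139214 for Thrsp and chrX:14735721-14735970 for Mid1ip1. Capitals mark a CCAAT box (CCAAT, or ATTGG on the other strand) or a GC box (GGGCGG, or CCGCCC).
Srebf1 start 2: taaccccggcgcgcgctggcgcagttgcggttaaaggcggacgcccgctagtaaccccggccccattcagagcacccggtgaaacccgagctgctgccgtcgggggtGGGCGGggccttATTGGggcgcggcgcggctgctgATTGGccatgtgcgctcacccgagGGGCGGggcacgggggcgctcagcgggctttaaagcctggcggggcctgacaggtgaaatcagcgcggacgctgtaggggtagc
Mlxipl start 1: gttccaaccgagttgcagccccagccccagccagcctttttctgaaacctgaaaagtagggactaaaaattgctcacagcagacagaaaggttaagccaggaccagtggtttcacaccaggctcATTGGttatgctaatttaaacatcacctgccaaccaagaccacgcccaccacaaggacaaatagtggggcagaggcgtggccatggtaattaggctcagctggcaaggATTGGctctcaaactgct
Thrsp: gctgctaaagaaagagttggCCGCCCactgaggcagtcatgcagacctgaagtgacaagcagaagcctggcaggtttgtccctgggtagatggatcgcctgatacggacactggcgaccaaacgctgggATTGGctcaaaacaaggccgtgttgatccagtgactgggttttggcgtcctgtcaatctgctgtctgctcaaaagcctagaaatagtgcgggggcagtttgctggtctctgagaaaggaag
Mid1ip1: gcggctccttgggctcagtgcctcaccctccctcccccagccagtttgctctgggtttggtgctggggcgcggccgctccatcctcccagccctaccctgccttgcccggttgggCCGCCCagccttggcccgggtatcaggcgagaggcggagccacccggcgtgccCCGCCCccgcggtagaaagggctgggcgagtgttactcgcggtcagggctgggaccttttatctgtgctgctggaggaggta

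The letters differ among the 4 genes. Srebf1 has CCAAT boxes 131 and 108 bases before its second start, each with a GC box close by, at 143 and 84 bases. Mlxipl has CCAAT boxes 126 and 18 bases before its start, and no GC box. Thrsp has a CCAAT box at 121 bases and a GC box at 230, and Mid1ip1 has GC boxes at 135 and 82 bases and no CCAAT box. Among 33469 RefSeq windows of the same length, 34.0% hold a CCAAT box and 30.5% a GC box. A sterol element (TCACNCCAC, in 0.974% of windows) and an E-box (CACGTG, in 5.59%) were searched on both strands too, and neither set of letters occurs in these windows of the 4 genes. These are exact letter matches in short windows, and an element spelled with other letters was not searched for.

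With limma and Benjamini-Hochberg adjustment over all 3240 measured probe sets, none of the 7 member probe sets passed the threshold of 0.05 in any comparison of diets. All 7 lay lower in 1% wakame livers than in control livers, with a median difference of -1.05 log2 against -0.02 log2 over all measured probe sets. These 7 read only 4 genes, as Srebf1 and Thrsp have more than 1 probe set each. On the brightest probe set per gene the differences were -1.07 for Srebf1, -0.33 for Mlxipl, -0.81 for Thrsp and -1.05 log2 for Mid1ip1. Of all 2301 measured genes, 54.8% lay lower in 1% wakame livers than in control livers. Of all measured probe sets, 1.67% passed in that comparison, 0.0617% passed for 0.1% wakame against control and 0% for 1% against 0.1% wakame. At an unadjusted p under 0.05, 2 of the 7 lay lower in 1% wakame livers, a share to be read against 10.1% of all measured probe sets. For 0.1% wakame against control this held for 1 of the 7, against 6.73% of all, and for 1% against 0.1% wakame for 0 of the 7, against 3.06% of all.

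The order of the arrays gave a similar picture. The 4 arrays of 1% wakame lay below all 4 control arrays for 1 member probe set, that of Mid1ip1, against 6.05% of all measured probe sets. The same probe set was the 1 member without overlap for 0.1% wakame against control, where 3.36% of all lay lower without overlap. For 1% against 0.1% wakame no member lay lower without overlap, against 1.94% of all. In the F-test for any difference among the 3 diets, 0.185% of all probe sets passed and 0 of the 7 did. The lowest adjusted p of the F-test was that of Mid1ip1, at 0.0943, and the others ran from 0.329 to 0.563. Both wakame diets were set against the same 4 control arrays, so their differences from control share those values.

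**Figure D1:**
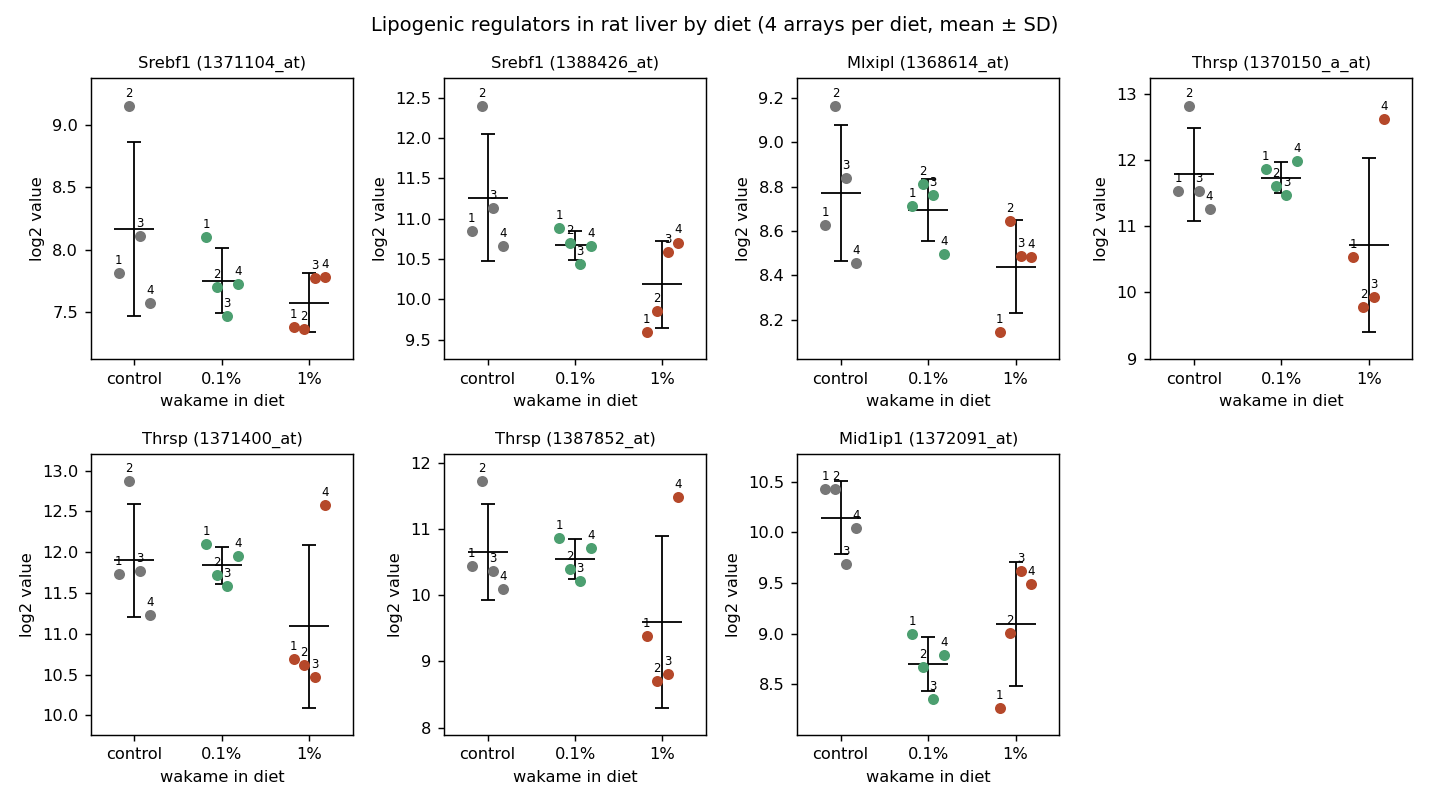
Deposited log2 value (vertical axis) of each of the 7 member probe sets on the 12 arrays, 1 panel per probe set, with diets in dose order along the horizontal axis. Points are single livers with their replicate numbers, and bars give the mean ± SD of 4 arrays. Control array 2 is the highest control point for Srebf1, Mlxipl and Thrsp, and 1% wakame array 4 is far above the other 1% wakame points for Thrsp only.

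Srebf1, the transcription factor that turns on the fatty acid synthesis genes, is read by 2 probe sets. On 1388426_at the 4 control livers read 10.85, 12.40, 11.13 and 10.66 log2, the 0.1% wakame livers 10.89, 10.69, 10.44 and 10.66, and the 1% wakame livers 9.60, 9.86, 10.58 and 10.71. Control array 2 was by far the highest, and 3 of the 4 livers on 1% wakame lay below the lowest control liver, while the fourth overlapped with control. The mean was 10.19 ± 0.54 log2 on 1% wakame and 11.26 ± 0.78 log2 on control (SD, n = 4 each). The difference was -1.07 ± 0.37 log2 (SE), or 2.10-fold lower, with a 95% interval of -1.89 to -0.26. Its adjusted p was 0.165, and the exact two-sided permutation p was 0.0571. Without control array 2 the difference was -0.69 log2 (limma adjusted p = 0.241).

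In livers on 0.1% wakame, Srebf1 on 1388426_at lay -0.59 ± 0.37 log2 from control (95% interval -1.40 to 0.22, limma adjusted p = 0.597), and -0.21 log2 without control array 2. Set against 0.1% wakame, the 1% wakame livers lay -0.48 ± 0.37 log2 away (95% interval -1.30 to 0.33, limma adjusted p = 0.878), and -0.29 log2 without 1% wakame array 1. The diet means thus stood in dose order, but the 95% interval of each step spanned changes of either direction.

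On 1371104_at, the dimmer Srebf1 probe set, the control livers read 7.81, 9.15, 8.11 and 7.58 log2, the 0.1% wakame livers 8.10, 7.70, 7.47 and 7.73, and the 1% wakame livers 7.38, 7.37, 7.78 and 7.78. The diets overlapped, and control array 2 again stood highest. The 1% wakame mean lay -0.59 ± 0.30 log2 from control, 1.50-fold lower (limma adjusted p = 0.316). Without control array 2 it lay -0.26 log2 away. Both Srebf1 probe sets followed each other over the 12 arrays, with a Pearson r of 0.945 between them.

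Mlxipl, whose product ChREBP responds to glucose metabolites, had the smallest SD over the 12 arrays of the 7 probe sets, 0.254 log2. The control livers read 8.63, 9.16, 8.84 and 8.45 log2, the 0.1% wakame livers 8.71, 8.81, 8.76 and 8.50, and the 1% wakame livers 8.15, 8.64, 8.49 and 8.48. The diets overlapped in each pair. The mean was 8.44 ± 0.21 log2 on 1% wakame and 8.77 ± 0.31 log2 on control (SD, n = 4 each). The difference was -0.33 ± 0.16 log2, 1.26-fold lower, with a 95% interval of -0.67 to 0.01 (limma adjusted p = 0.285, exact permutation p = 0.2). It was -0.20 log2 without control array 2. Between 0.1% wakame and control it was -0.08 ± 0.16 log2, with a 95% interval of -0.42 to 0.27, and the direction turned without control array 2. Between 1% and 0.1% wakame it was -0.26 ± 0.16 log2 (limma adjusted p = 0.824), and -0.16 log2 without 1% wakame array 1.

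Thrsp is read by 3 probe sets, of which 1370150_a_at and 1387852_at carry the same reference transcript in the platform annotation. Their values correlated at 0.978 to 0.997 over the 12 arrays, so they are 3 readings of the same RNA and not 3 results. On 1371400_at the control livers read 11.73, 12.87, 11.77 and 11.23 log2, the 0.1% wakame livers 12.10, 11.71, 11.58 and 11.95, and the 1% wakame livers 10.69, 10.62, 10.48 and 12.58. In 3 of the 4 livers on 1% wakame, Thrsp lay below every other liver of the study, and in the fourth it was higher than in every liver but control 2. Probe set 1370150_a_at gave the same picture, with 10.53, 9.79, 9.92 and 12.62 log2 on 1% wakame and 11.54, 12.82, 11.53 and 11.26 log2 on control. Probe set 1387852_at gave 9.39, 8.70, 8.81 and 11.48 log2 on 1% wakame and 10.44, 11.72, 10.37 and 10.10 log2 on control.

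The differences of Thrsp between 1% wakame and control were -0.81 ± 0.47 log2 on 1371400_at, -1.07 ± 0.57 on 1370150_a_at and -1.06 ± 0.57 on 1387852_at. None passed the adjusted threshold, with limma adjusted p-values of 0.383, 0.342 and 0.349. The 95% interval on 1371400_at ran from -1.84 to 0.22. Without 1% wakame array 4 the differences were -1.31, -1.71 and -1.69 log2, with limma adjusted p-values of 0.0898, 0.0677 and 0.0764. Without control array 2 they were -0.49, -0.73 and -0.71 log2, with limma adjusted p-values of 0.620, 0.560 and 0.567. On 0.1% wakame, Thrsp lay close to control, at -0.06 ± 0.47 log2 on 1371400_at, with a 95% interval of -1.09 to 0.97 that spans changes of either direction.

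A measure of RNA quality is given beside Thrsp. The array carries control probe sets at the 3′ and the 5′ end of Gapdh, and the gap between them grows when RNA is broken or copied short. It was 1.04 to 1.07 log2 on the control arrays, 1.20, 1.07, 0.96 and 1.10 on the 0.1% wakame arrays, and 1.22, 1.42, 1.17 and 1.04 on the 1% wakame arrays, so that array 4 of 1% wakame, with the high Thrsp, was the one like control. Within 0.1% wakame the order was the other way: array 1, with the largest gap, had the highest Thrsp of its diet on 1371400_at (12.10 log2), and array 3, with the smallest gap, the lowest (11.58 log2). With this gap as a covariate, the difference of Thrsp on 1371400_at between 1% wakame and control was -0.39 log2 (limma adjusted p = 0.875), against -0.81 log2 without it. That of Srebf1 was -0.85 log2 on 1388426_at (-1.07 without the covariate) and -0.54 log2 on 1371104_at (-0.59 without it). The differences of Mid1ip1 and Mlxipl moved little in size. Mid1ip1 lay at -1.001 log2 with the covariate (limma adjusted p = 0.313) and -1.05 log2 without it (limma adjusted p = 0.0951). Mlxipl lay at -0.35 and -0.33 log2. The mean gap was 1.05 log2 on control, 1.08 on 0.1% wakame and 1.21 on 1% wakame, so gap and diet cannot be fully told apart. Whether RNA quality had a part in these values was not tested.

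Mid1ip1, whose product aids the assembly of acetyl-CoA carboxylase, lay low on both wakame diets. The control livers read 10.43, 10.43, 9.68 and 10.04 log2, the 0.1% wakame livers 9.00, 8.67, 8.35 and 8.79, and the 1% wakame livers 8.27, 9.01, 9.62 and 9.49. Every wakame liver lay below every control liver, although the highest 1% wakame value, 9.62, came close to the lowest control value, 9.68. The mean was 8.70 ± 0.27 log2 on 0.1% wakame and 10.14 ± 0.36 log2 on control (SD, n = 4 each). This difference of -1.44 ± 0.29 log2, 2.72-fold lower, had a 95% interval of -2.08 to -0.80. Its unadjusted p of 0.000462 in limma ranked 10 among the 3240 probe sets, and its adjusted p was 0.150. The exact permutation p was 0.0286, the smallest that 4 against 4 arrays can give.

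On 1% wakame, Mid1ip1 averaged 9.10 ± 0.61 log2 (SD, n = 4), -1.05 ± 0.29 log2 from control and 2.07-fold lower, with a 95% interval of -1.69 to -0.41. The limma adjusted p was 0.0951, and the exact permutation p was again the smallest possible, 0.0286. Between 1% and 0.1% wakame the difference was 0.39 ± 0.29 log2, with a 95% interval of -0.24 to 1.03 (limma adjusted p = 0.872). It was 0.67 log2 without 1% wakame array 1 and 0.22 log2 without array 3. The diet means of Mid1ip1 therefore did not stand in dose order. The 95% interval of the step between the wakame diets spanned changes of either direction.

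**Figure D2:**
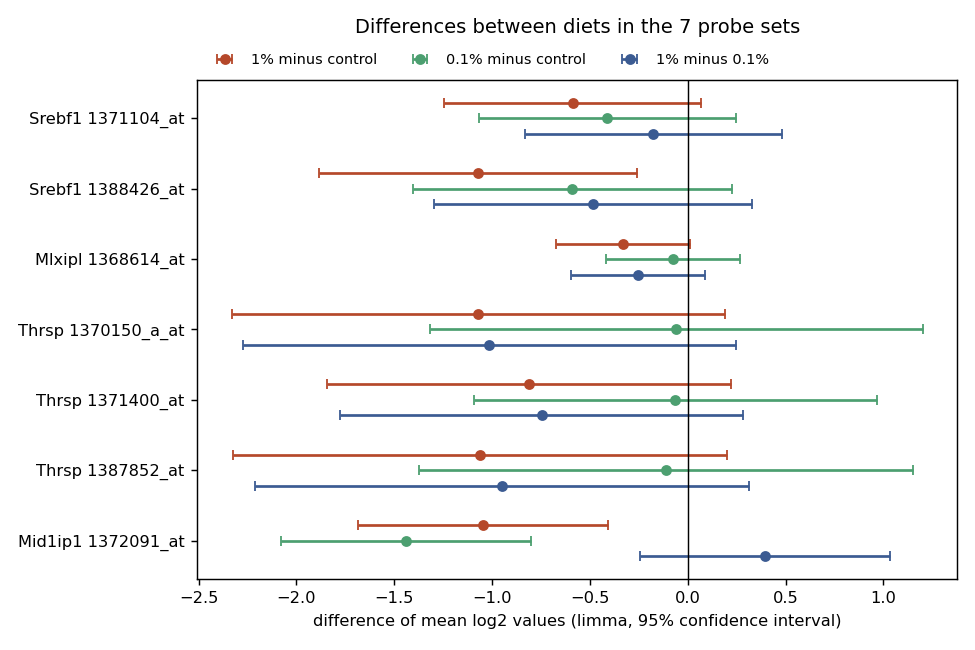
Difference in log2 level (horizontal axis) for each of the 7 member probe sets in each of the 3 comparisons, with points for the limma estimate and lines for its 95% interval. The intervals of Mid1ip1 against control exclude 0 on 1% wakame, at -1.69 to -0.41, and on 0.1% wakame, at -2.08 to -0.80, and the interval of Srebf1 on 1388426_at excludes 0 on 1% wakame only, while no adjusted p is below 0.05.

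Across the 12 livers some of the regulators varied together. The brightest probe set of each gene was used, which gave 6 pairs. The p-values came from 100000 permutations over all 12 arrays, whatever their diet, and were adjusted over these pairs. A shift shared by a diet thus counts as varying together, and r within the diets was not tested. Srebf1 and Thrsp had a Pearson r of 0.76 (permutation p = 0.00328, adjusted 0.0197) and a Spearman rho of 0.79 (permutation p = 0.00346, adjusted 0.0208). Within the diets, after taking away each diet's mean, r was 0.73, and without the 2 arrays farthest from the Srebf1 median, control 2 and 1% wakame 1, it was 0.59 (n = 10).

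Srebf1 and Mlxipl had an r of 0.80 (permutation p = 0.0067, adjusted 0.0201) and a rho of 0.57 (permutation p = 0.0592, adjusted 0.118). Within the diets their r was 0.72. Without the same 2 arrays it was 0.20, so this relation rests on those arrays. Srebf1 and Mid1ip1 had an r of 0.67 (permutation p = 0.0106, adjusted 0.0212) and a rho of 0.65 (permutation p = 0.0255, adjusted 0.0765). Their r was 0.64 within the diets and 0.37 without those arrays. The relations of Mlxipl with Thrsp (r = 0.59), of Mlxipl with Mid1ip1 (r = 0.37) and of Thrsp with Mid1ip1 (r = 0.33) did not pass the adjusted threshold. Within the diets their r was 0.42, 0.34 and 0.42, in the same order.

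**Figure D3:**
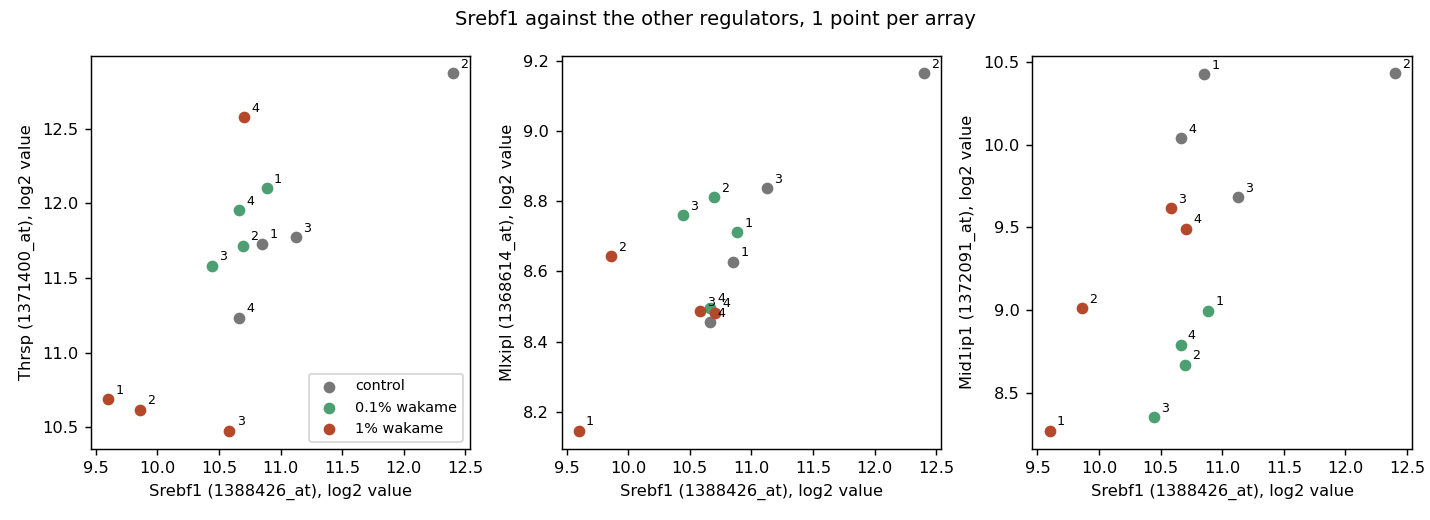
Log2 level of Thrsp, Mlxipl and Mid1ip1 (vertical axes) against that of Srebf1 on 1388426_at (horizontal axis), with 1 point per liver and colours for the diets. Control array 2 is the point farthest to the right in each panel, and Srebf1 and Thrsp have a Pearson r of 0.76 over the 12 livers.

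The enzymes that these regulators act on were looked at as a list of 22 genes of fatty acid and triglyceride synthesis, of which 17 were measured. None passed the adjusted threshold in either comparison with control. In 1% wakame livers 15 of the 17 lay lower than in control livers, 9 of them at an unadjusted p under 0.05. That is 52.9% of the list, where 9.52% of all 2301 measured genes lay lower at that p. The median of the list was -0.55 log2, against -0.018 log2 for all measured genes. In 0.1% wakame livers 14 of the 17 lay lower, 5 of them at that p (29.4% of the list, where 6.26% of all measured genes did), with a median of -0.37 log2 against -0.013 log2 for all. Without control array 2, those 5 became 0 and the 9 on 1% wakame became 7. Without 1% wakame array 4 the 9 became 10.

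Elovl6, which lengthens fatty acids, had the lowest adjusted p of the list, with -2.25 ± 0.52 log2 between 1% wakame and control (limma adjusted p = 0.0605). Pnpla3, a lipid droplet protein and a target of SREBP-1 in mice, lay -5.22 ± 1.39 log2 from control on its brightest probe set (limma adjusted p = 0.0856), and -3.84 and -2.84 log2 on its other measured probe sets. Fasn, fatty acid synthase, lay at 9.18, 8.37, 9.67 and 11.27 log2 in 1% wakame livers and at 11.37, 13.58, 11.68 and 11.05 log2 in control livers. As with Thrsp, array 4 of 1% wakame was the one inside the control range. The difference of Fasn was -2.30 ± 0.72 log2 (limma adjusted p = 0.131), and -1.61 log2 with the Gapdh gap as a covariate.

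Acly, which makes cytosolic acetyl-CoA from citrate, showed the same array pattern, at 9.38, 9.42, 10.90 and 12.57 log2 in 1% wakame livers and 12.30, 13.50, 12.47 and 12.39 log2 in control livers. Its difference was -2.10 ± 0.74 log2 (limma adjusted p = 0.180), and -1.14 log2 with the Gapdh gap as a covariate (limma adjusted p = 0.651). Me1 (malic enzyme) and Pgd (of the pentose phosphate path), which supply NADPH, lay -1.96 ± 0.61 and -0.97 ± 0.31 log2 from control, with limma adjusted p-values of 0.129 and 0.146. Acss2, which makes acetyl-CoA from acetate, lay -0.67 ± 0.24 log2 away, and Gpam, which starts glycerolipid synthesis in mitochondria, -0.55 ± 0.17 log2, with limma adjusted p-values of 0.189 and 0.131. Acaca, the acetyl-CoA carboxylase to which the product of Mid1ip1 binds, lay -0.79 ± 0.37 log2 from control on 1% wakame (limma adjusted p = 0.288) and -0.71 ± 0.37 log2 on 0.1% wakame (limma adjusted p = 0.519). These were -0.45 log2 on 1% wakame and -0.37 log2 on 0.1% wakame without control array 2, and with the Gapdh gap as a covariate Acaca lay -0.48 log2 from control on 1% wakame. Me1 lay -2.91 log2 away on its other measured probe set.

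Not every gene of the list lay lower. Lpin1, a phosphatidate phosphatase that also acts as a coactivator, was picked after its values were seen because it lay the other way, at 1.04 ± 0.58 log2 on 1% wakame (limma adjusted p = 0.367) and 1.91 ± 0.58 log2 on 0.1% wakame (limma adjusted p = 0.228).

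**Figure D4:**
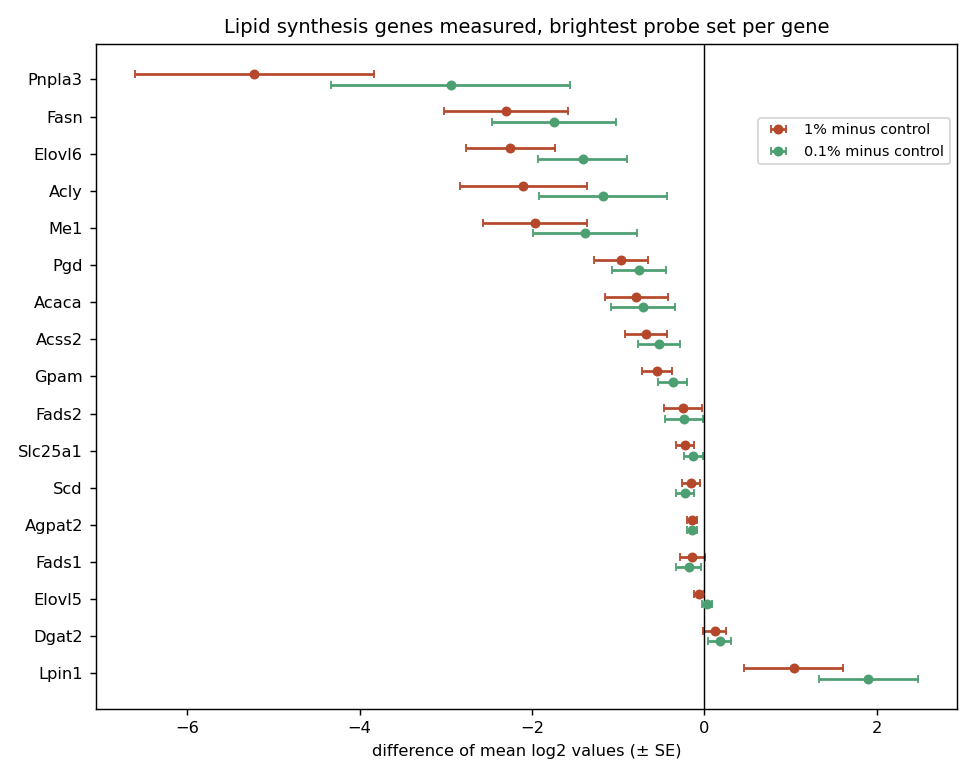
Difference from control in log2 level (horizontal axis) of the 17 measured genes listed for fatty acid and triglyceride synthesis, for 1% wakame and 0.1% wakame, with points for the limma estimate and bars for its SE. On 1% wakame 15 of the 17 points lie to the left of 0, with Pnpla3, on its brightest probe set, at -5.22 log2.

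A further list held genes of sugar use that ChREBP is known to act on, together with its partner Mlx and its relative Mlxip. Of these 12 genes, 8 were measured, Mlxip among them, and 5 of these lay lower in 1% wakame livers than in control livers, 2 at an unadjusted p under 0.05 (25% of the list, where 9.52% of all measured genes did) and 0 after adjustment. The list median was -0.14 log2. Those 2 became 0 without control array 2. The 2 were Tkt, transketolase, at -0.36 ± 0.15 log2 (limma adjusted p = 0.243), and Tkfc, a fructose metabolism kinase, at -0.51 ± 0.22 log2 (limma adjusted p = 0.248). Pklr, liver pyruvate kinase and a classical ChREBP target, lay -0.42 ± 0.23 log2 from control on 1% wakame (limma adjusted p = 0.356) and -0.64 ± 0.23 log2 on 0.1% wakame (limma adjusted p = 0.333). The value on 1% wakame was -0.23 log2 without control array 2. Txnip, another ChREBP target, lay 0.17 ± 0.11 log2 from control on 1% wakame (limma adjusted p = 0.445). Mlx, the partner of ChREBP, was unmeasured.

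Of 10 genes listed for SREBP processing, Srebf2 among them, only the retention proteins Insig1 and Insig2 were measured. Scap and Srebf2 were not. Insig1, itself an SREBP target, lay -0.89 ± 0.51 log2 from control on 1% wakame (limma adjusted p = 0.383) and 0.18 ± 0.51 log2 on 0.1% wakame. With the Gapdh gap as a covariate the value on 1% wakame was -0.38 log2, and without 1% wakame array 2 it was -0.58 log2. Insig2 differed by 0.06 ± 0.08 log2 on 1% wakame (limma adjusted p = 0.753). Of 14 nuclear receptors and cofactors that feed into these promoters, 4 were measured, and all 4 lay higher on both wakame diets, with 0 passing the adjusted threshold. At an unadjusted p under 0.05, Nr0b2 and Nr1i3 lay higher on 1% wakame, as did 191 of all 2301 measured genes, and Nr0b2 and Hnf4a on 0.1% wakame, as did 106 of the 2301. Nr0b2, which encodes the repressor SHP, lay 1.49 ± 0.59 log2 from control on 1% wakame (limma adjusted p = 0.220), and Nr1i3, the receptor CAR, 1.16 ± 0.41 log2 (limma adjusted p = 0.175). Nr1h3, which encodes the oxysterol receptor LXRα that turns on Srebf1, was unmeasured.

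Of 15 genes of insulin and energy signalling 3 were measured. Prkab1, a subunit of the AMP-activated kinase, lay -0.79 ± 0.22 log2 from control on 1% wakame (limma adjusted p = 0.0945), and Pck1, a gluconeogenic enzyme that insulin represses, 0.57 ± 0.22 log2 (limma adjusted p = 0.202), or 0.31 log2 without control array 1. The third, Igfbp1, lay 1.28 ± 0.69 log2 from control on 1% wakame (limma adjusted p = 0.350). On 0.1% wakame Igfbp1 lay 2.71 ± 0.69, Pck1 0.73 ± 0.22 and Prkab1 -0.12 ± 0.22 log2 from control, with limma adjusted p-values of 0.196, 0.223 and 0.884. Of 14 thyroid hormone genes, which include Thrsp and Me1, 8 were measured, 4 higher and 4 lower in 1% wakame livers, and 0 passed. Thrb, the main thyroid hormone receptor of liver, lay 0.30 ± 0.28 log2 from control (limma adjusted p = 0.602), and the corepressor Ncor1 -0.45 ± 0.14 log2 (limma adjusted p = 0.130).

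The 1 call in these lists was a clock gene. Of 17 clock gene symbols 12 were measured, 8 higher and 4 lower in 1% wakame livers than in control livers. At an unadjusted p under 0.05, 5 lay higher (Nr1d1, Nr1d2, Dbp, Tef and Per3) and 1 lower (Cry1). Of all 2301 measured genes, 191 lay higher and 219 lower at that p. After adjustment 1 of the 12 passed, where 16 of the 2301 passed as higher and 11 as lower. Nr1d1, the rhythmic repressor REV-ERBα, rose on 1% wakame, at 8.04 to 9.21 log2 against 6.31 to 6.91 log2 in control livers, a difference of 1.98 ± 0.33 log2 (limma adjusted p = 0.0262). With 1 array left out in turn the adjusted p ranged up to 0.0761, and it missed the threshold without 1% wakame array 2 or 4 or control array 1, 2 or 4. Cry1, a core clock repressor, lay -0.64 ± 0.16 log2 from control (limma adjusted p = 0.0700). On 0.1% wakame Nr1d1 read 7.24 to 8.60 log2. Fatty acid synthesis follows the time of day and of the last meal, and whether time of day had a part in the regulators' values was not tested.

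Outside these lists, the genes most like each regulator were ranked by Pearson r over the 12 arrays, as a description in which all genes share the same livers and arrays. For Srebf1 on 1388426_at they were Fasn, Secisbp2l and Acaca, at r of 0.90 each, then Bcar1 and Anp32a at 0.88, and 0.79 to 0.89 after the diet means were taken away. For Srebf1 on 1371104_at they were Acaca (0.91), Extl1 (0.90), Lpcat3 (0.90), Fasn (0.88) and Tm6sf2 (0.86). Fasn and Acaca, the central enzymes of fatty acid synthesis, stood among the 5 of both Srebf1 probe sets.

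The 5 genes most like each of the other regulators held neither enzyme, but likeness to synthesis genes was not particular to Srebf1. Over the 17 measured synthesis genes the median r was 0.65 for Srebf1 on 1388426_at, 0.63 for Mlxipl and 0.61 for Mid1ip1. For Thrsp on 1371400_at it was 0.46, with 0.75 for Fasn and 0.73 for Acaca. Over all measured probe sets the median r of these regulators was 0.02 to 0.06. These r include shifts shared by a diet. After the diet means were taken away, the median r over the synthesis genes was 0.52 for Srebf1, 0.46 for Mlxipl, 0.41 for Thrsp and 0.37 for Mid1ip1, on the same probe sets. Mlxipl was most like Mapkapk2 (0.88), Pfdn6 (0.82), Synpo (0.82), Adipor2 (0.80) and Srebf1 (0.80). Thrsp on 1371400_at was most like Tspyl4 (0.86), Mrpl15 (0.86), Ndufv2 (0.79), Rcan1 (0.77) and Srebf1 (0.76), and Tspyl4, Mrpl15 and Rcan1 stood among the 5 of all 3 Thrsp probe sets. Mid1ip1 was most like Nqo1, an antioxidant enzyme (0.86), then Scly (0.82), Tiparp (0.81), Ghr (0.81) and Chchd10 (0.79). After the diet means were taken away, r with Mid1ip1 was 0.79 for Scly and 0.61 for Nqo1, but 0.39 to 0.48 for Tiparp, Ghr and Chchd10, whose likeness lay more between diets.

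**Figure D5:**
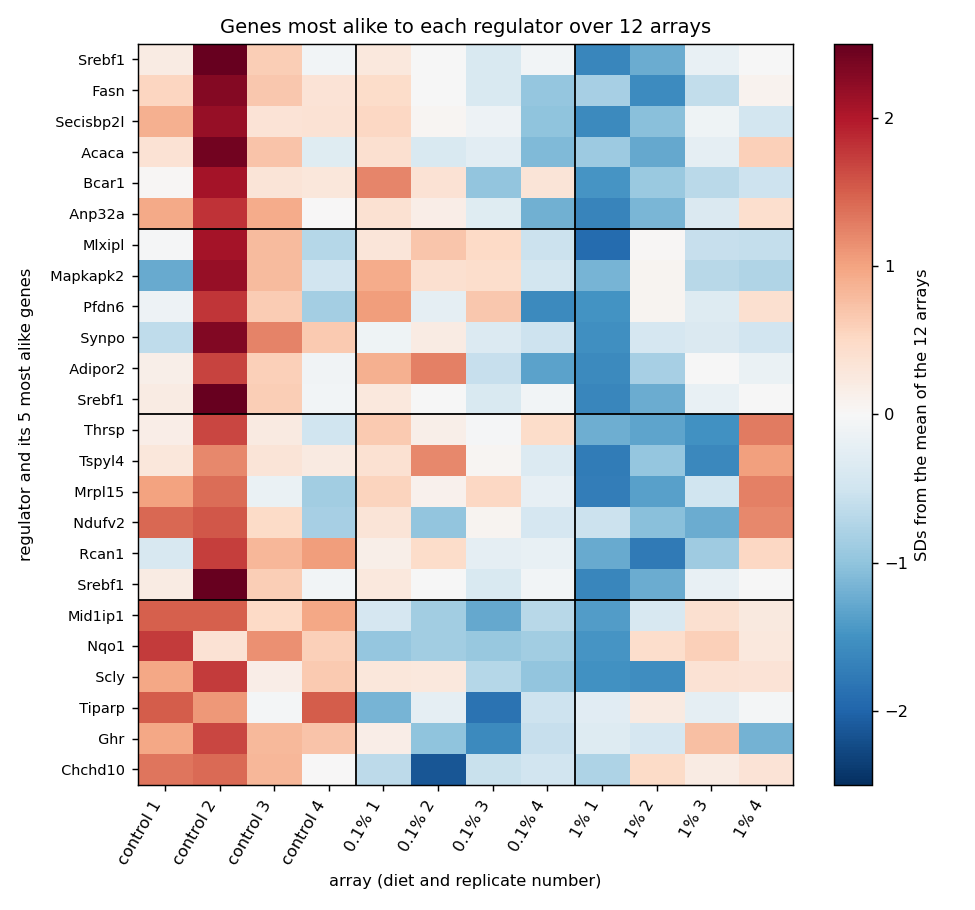
Heat map of each regulator's brightest probe set and the 5 genes most like it (rows) over the 12 arrays (columns, grouped by diet in dose order), with colour for the distance of a log2 value from the row's mean in SDs. Control array 2 is high in the Srebf1 block, where Fasn and Acaca follow Srebf1 at r of 0.90, and 1% wakame array 4 is high in the Thrsp block.

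Whole liver was measured, so fewer cells of a type and less RNA per cell cannot be told apart. The defining marker of hepatocytes was bright: Alb, the gene of serum albumin, read 14.6 log2 with a flat value on every array. It therefore counts as unmeasured, and its constant value says nothing on differences in hepatocyte content between diets. The 7 hepatocyte markers measured, of 11 listed, had a summed level of 15.2 to 15.6 log2 on 1% wakame, 15.3 to 15.7 on 0.1% wakame and 15.1 to 15.4 on control. A sum follows its brightest genes, and single markers moved apart. On 1% wakame 4 lay higher than control and 3 lower, with Cyp2e1 at 0.67 ± 0.35 log2 and Tat at -1.04 ± 0.48 log2. None of the 7 passed the adjusted threshold (0 called). Fat tissue makes the same lipogenic RNAs, and of 8 adipocyte markers only Cfd was measured. It read 7.60 to 8.33 log2 on 1% wakame, 7.61 to 8.14 on 0.1% wakame and 7.22 to 7.93 on control. The others with a probe set were flat and so count as unmeasured. Their constant values were 5.98 to 6.15 log2 for Adipoq, Lep, Fabp4 and Plin1, below the array median of 6.59, and 8.75 log2 for Cidec and 7.22 and 7.33 log2 for Lipe, above it. The 5 Kupffer cell markers measured, of 10, summed to 11.2 to 12.2 log2 on 1% wakame, 11.4 to 12.1 on 0.1% wakame and 11.4 to 12.0 on control. The 5 stellate cell markers, of 10, summed to 11.3 to 11.7 log2 on 1% wakame, 11.2 to 11.7 on 0.1% wakame and 11.2 to 11.6 on control. Over the measured probe sets, arrays of the same diet correlated at 0.911 to 0.961 and arrays of different diets at 0.887 to 0.957.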

How the data were processed

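The authors deposited 1 table of log2 values from 12 rat liver arrays. Their range of 3.15 to 14.6 is the basis for taking them as log2. The submitters' processing notes name R 2.7.2. Background correction, normalization and the origin of the many flat values: not given in the sources used here. No scanner files were used, so there is no detection call, and precision is limited by the number of arrays. Per the labels' protocols, 100 ng of RNA was copied from the 3′ end into biotin-labelled cRNA.

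The 57 control probe sets were left out, and limma 3.58.1 in R 4.3.3 fitted a mean per diet to the 3240 probe sets with SD above 0.01, with moderated variances that follow level and Benjamini-Hochberg adjustment over all of them. Flat values do not show that RNA was unchanged. The fit was checked on simulated data. Single differences were also tested by the exact two-sided permutation test over 70 regroupings (21 tests, unadjusted). Lists used 1 probe set per gene, the brightest measured. The members, lists, filter and tests were chosen with earlier results of these data known. Named were all members, the 8 synthesis genes with the smallest p on 1% wakame against control, the 2 such genes of each other list and a few regulators and targets named for their role. Igfbp1 and the clock genes Nr1d2, Dbp, Tef and Per3 were added after their values were seen. Figures and counts used Python 3.11.15 and matplotlib 3.10.9. Alternatives covered filters, variance models, quantile normalization, array weights, the Gapdh gap, a replicate block and each array left out.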

Additional observations from a re-analysis of the deposited data

Results flagged for a closer look

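Of 21 sets of 4 arrays (7 member probe sets in 3 diets), 1 had a liver far from the others. Thrsp on 1371400_at read 12.58 log2 on 1% wakame array 4 and 10.48 to 10.69 log2 on the other arrays of that diet. The gap to the nearest liver was 0.898 of the whole range, above Dixon's 95% critical value for 4 samples, and chance alone flags about 5% of such sets. The same array was also the highest of its diet on the other Thrsp probe sets, at 12.62 log2 on 1370150_a_at and 11.48 log2 on 1387852_at.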

How the results depend on the processing

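The 21 member differences (7 probe sets in 3 comparisons) were recomputed under 19 or 20 alternative settings each, 411 values in all, and none passed the adjusted threshold. The direction was kept in 402. The 9 values that turned compared 0.1% wakame with control, where the differences of Mlxipl and Thrsp lay near 0. With the Gapdh gap as a covariate Thrsp lay at 0.064 log2 on 1370150_a_at and 0.011 on 1371400_at. With each array left out in turn, Mlxipl ran from -0.18 to 0.055 log2, and Thrsp from -0.23 to 0.29 on 1370150_a_at, -0.29 to 0.26 on 1371400_at and -0.30 to 0.24 on 1387852_at. Mid1ip1 against control ran from -1.22 to -0.77 log2 on 1% wakame (limma adjusted p 0.0761 to 0.404) and from -1.59 to -1.32 on 0.1% wakame (0.0802 to 0.557). Of the other genes named, Nr1d1 kept its direction in all 20 alternatives (1.73 to 2.13 log2) and missed the threshold in 8, with all probe sets, the Gapdh gap, the replicate block or 1 of 5 arrays left out. Insig2 on 1% wakame turned to -0.0085 log2 with the Gapdh gap and ran from -0.0099 to 0.11 with an array left out, and Insig1 on 0.1% wakame ran from -0.13 to 0.48. The counts of all changed probe sets, against which the members are read, moved more. For 1% wakame against control, 54 passed, but 9 with all probe sets fitted, 29 with robust variances, 28 with the 2 diets alone, 10 with 1 probe set per gene, 4 with the Gapdh gap and 7 to 36 with an array left out. For 0.1% wakame against control, 2 passed, but 5 with all probe sets, 1 with quantile normalization or array weights, 0 with 2 diets alone or 1 probe set per gene, and 0 to 3 with an array left out. For 1% against 0.1% wakame, 0 passed, but 6 with all probe sets and up to 1 with an array left out. The causes of these moves were not tested. With the replicate number as a block, 12 passed for 1% wakame and 0 for 0.1% wakame against control. Over all measured probe sets, same-numbered livers did not deviate together (r of -0.12 to 0.092). This gives no sign that the numbers pair the animals, but an r over all probe sets cannot exclude a factor that acts on few of them. The list counts of 15 and 14 genes lower in synthesis were the same without control array 2, 1% wakame array 4 or both, alternatives chosen after the data were seen.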
